A study of Homo sapiens with 21 samples.

Results

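EWS/FLI knockdown was compared with control RNAi in A673 cells, a cell line grown from a Ewing sarcoma. The comparison uses 9 of the 21 RNA sequencing libraries of the series, 5 knockdown libraries (replicates 1 to 5) and 4 control RNAi libraries (replicates 1, 2, 3 and 5). In the knockdown group the cells carried EF-2-RNAi, which targets EWS/FLI, and then received an empty pMSCV-hygro vector. In the control RNAi group they carried Luc-RNAi, directed against luciferase, a gene these cells do not have, and received the same empty vector. Both groups were A673 cells with stable infection and 4 days of selection before the vector was added. The other 12 libraries carry the same EWS/FLI RNAi together with a rescue construct (full-length type IV EWS/FLI, called wild type here, the delta 22 mutant or the mut9 mutant) and enter here mainly through the shared estimate of spread. Every gene with a value of at least 10 (linear) in at least 3 of the 21 libraries was a member, which gave 18040 of the 57820 genes in the table. The model is 1 cell line with 1 RNAi against the fusion, and the labels do not say whether replicates came from separate cultures, so p-values measure the spread between these libraries, which may be technical.

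EWS/FLI joins the low-complexity amino-terminal part of EWS to the part of FLI1 that binds DNA, an ETS domain. It is the driver of most Ewing sarcomas. It activates many genes from stretches of repeated GGAA and holds others down, so that lowering it in A673 cells is a classical test of which genes depend on it. RNA interference lowers a transcript by cutting it through a matching short RNA. In bulk RNA, fewer cells of a type and less RNA per cell cannot be told apart.

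Values are the log2 normalized levels that the authors deposited. Library totals are not kept in them, so the depth is unknown and levels are compared only within a gene. Between 17042 and 17160 genes reached 10 in a knockdown library and between 16708 and 16834 in a control RNAi library. Differences are knockdown minus control RNAi on the log2 scale with their standard error, from limma with the replicate number as a batch term. Adjusted p is the Benjamini-Hochberg value over all 18040 genes, and a gene rose or fell only where it was below 0.05. Control RNAi replicate 1 stood apart most for genes that knockdown raised. Of the 1513 genes at least 4-fold higher after knockdown, 49.4% had their lowest control RNAi value in it, and 40.4% had their highest in replicate 3. Of the 509 genes at least 4-fold lower, replicate 1 was the highest control RNAi library for 38.1% and the lowest for 33.2%. Without replicate 1, 12422 genes passed, against 12964 with it. The count was much the same without replicate 2 (12396), replicate 3 (12439) or replicate 5 (12290), so this drop is not particular to replicate 1.

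FLI1, which supplies the DNA-binding part of the fusion, was low in every knockdown library. Its log2 level was 9.67, 9.84, 9.99, 9.59 and 9.76 in knockdown replicates 1 to 5, against 11.69, 11.61, 11.56 and 11.68 in control RNAi replicates 1, 2, 3 and 5. The groups did not overlap, and FLI1 was 3.62-fold lower after knockdown (-1.86 ± 0.10, adjusted p = 2.42e-10). An exact 2-sided permutation test over the 9 libraries gave p = 0.0159, the smallest that these group sizes allow. With swaps only inside the 4 batches that hold both groups, the exact permutation p was 0.125 for FLI1 and for EWSR1 below, the smallest that 16 such swaps can give, so this restricted test cannot pass 0.05. Within batches 1, 2, 3 and 5 the difference was -2.02, -1.77, -1.58 and -1.91. Batch 4 holds no control RNAi library. EWSR1, which supplies the other part of the fusion and also has an intact allele, had 13.58 to 13.81 in knockdown libraries and 14.11 to 14.23 in control RNAi libraries (-0.46 ± 0.07, adjusted p = 3.3e-05, exact permutation p = 0.0159). Reads of FLI1 or EWSR1 are not divided between the fusion and the intact genes.

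Genes that mark Ewing sarcoma fell after knockdown, and all 10 tested members of the marker list were at least 2-fold lower. Of all genes tested, 8.75% fell at least 2-fold. The marker list holds FLI1, part of the fusion that the RNAi targets, and known EWS/FLI targets such as NR0B1. It was also written with earlier results of these data known, so its direction is not independent evidence. CD99, the surface protein used in diagnosis, is listed at 0 in all 21 libraries and was not tested, and neither was the tumour suppressor gene CDKN2A, listed at 0 in the same way. A listed 0 in every library does not by itself show that a gene is silent in these cells, and its cause was not tested. NKX2-2, a homeobox transcription factor, had 6.77, 7.23, 7.60, 7.46 and 7.08 in knockdown replicates 1 to 5, against 9.93, 9.69, 9.53 and 9.5 in the control RNAi libraries (-2.50 ± 0.14, adjusted p = 1.96e-10). NR0B1, an orphan nuclear receptor controlled through GGAA repeats, was more uneven across knockdown libraries. It had 8.45, 9.27, 10.39, 9.29 and 9.84 in knockdown replicates 1 to 5, against 11.51 to 11.69 in control RNAi libraries (-2.16 ± 0.22, adjusted p = 1.9e-07). Knockdown replicate 1 was the lowest and replicate 3 the highest, and the groups did not overlap. PRKCB, a protein kinase C, showed the same order at its ends, with 9.73 in knockdown replicate 1 and 11.50 in replicate 3, against 14.13 to 14.38 in control RNAi libraries (-3.68 ± 0.25). LIPI, a lipase, and STEAP1, a metalloreductase of the cell surface, fell by 4.73 and 1.53. The cyclin gene CCND1 had 16.56 to 17.02 in knockdown libraries and 16.46 to 16.91 in control RNAi libraries, and the interval of its difference ran from -0.14 to 0.27 (adjusted p = 0.562). MYC had 12.98 to 13.75 in knockdown libraries, a wide spread beside 13.26 to 13.27 in control RNAi libraries, and did not pass (adjusted p = 0.877).

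**Figure D1:**
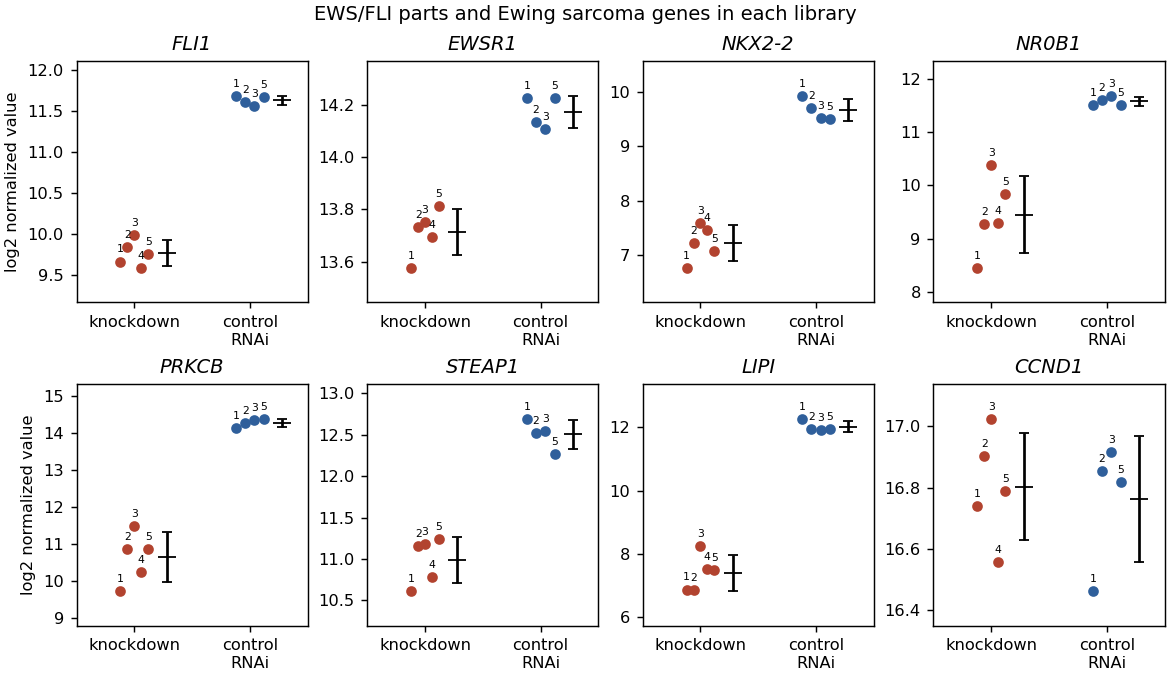
Log2 normalized value of 8 genes in each library, with knockdown left and control RNAi right, replicate numbers beside the points, and bars for the mean and SD (n = 5 and 4). FLI1, EWSR1, NKX2-2, NR0B1, PRKCB, STEAP1 and LIPI do not overlap between groups, whereas CCND1 does; each panel has its own axis.

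The change reached most of the transcriptome. Of 18040 genes, 12964 (71.9%) passed, 6596 (36.6%) higher and 6368 (35.3%) lower, and the groups did not overlap for 59.4%. With quantile scaling 37.9% of the calls were higher, against 50.9% without it, and the median over all tested genes was -0.201, against -0.005. Small differences were common: 8181 of the called genes (63.1%) changed by less than 2-fold. Rises and falls were unequal among large changes. Called genes at least 2-fold higher numbered 3204 (17.8% of those tested) and at least 2-fold lower 1579. At 8-fold the counts were 752 higher and 171 lower, and at 32-fold 190 higher and 8 lower. Only 1 gene was at least 64-fold lower, C7, against 70 genes at least 64-fold higher.

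The direction of the larger changes was shared by the batches. Of the 4783 genes called with at least a 2-fold change, 4763 had the same sign in each of batches 1, 2, 3 and 5, and of all genes tested 74.2% did. The 4783 were called from these same libraries, so their agreement follows largely from that choice and is not separate evidence. The median difference of the at least 2-fold higher genes was 2.10, 2.02, 1.82 and 1.85 in those batches, and of the at least 2-fold lower genes -1.70, -1.65, -1.43 and -1.54. Batch 3, where FLI1 fell least, had the smallest median in both directions. Among the 509 genes at least 4-fold lower, knockdown replicate 3 was the highest knockdown library for 239 (47%), and replicate 1 the lowest for 204 (40.1%). The FLI1 level of knockdown replicate 3, 9.99, was also the highest of the group. The lowest FLI1 level, 9.59, was in replicate 4, not replicate 1. Replicate 4 was the lowest knockdown library for 12.4% of the 509 genes and the highest for 19.8%. The part of FLI1 in this order was not tested.

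**Figure D2:**
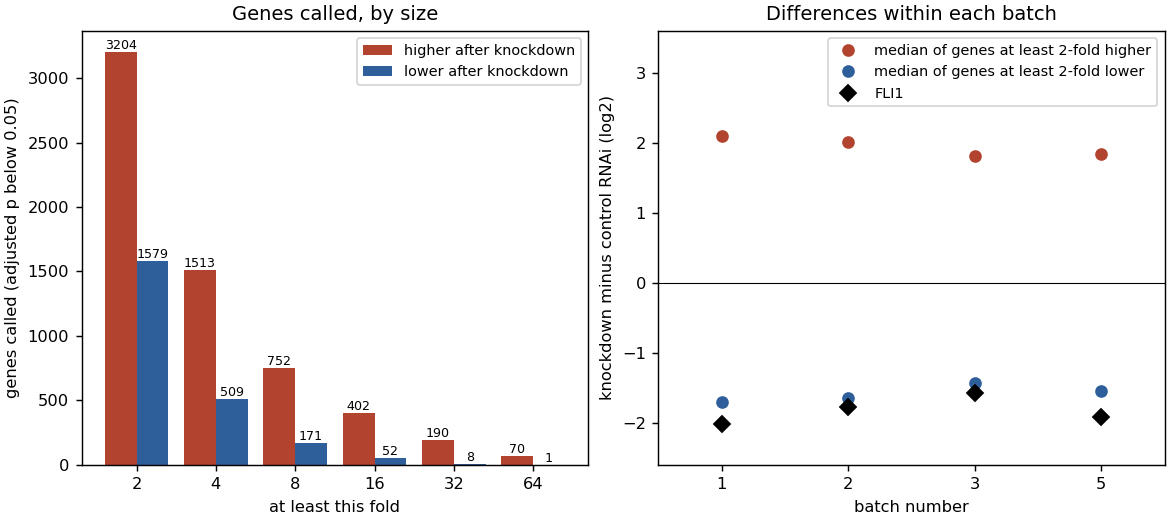
Left, number of genes with adjusted p below 0.05 at or beyond each fold size, higher (red) and lower (blue) after knockdown; right, median knockdown minus control RNAi difference (log2) within each batch for genes at least 2-fold higher or lower, with FLI1 as diamonds. Rises outnumber falls at every size, from 3204 against 1579 at 2-fold to 70 against 1 at 64-fold, and batch 3 shows the smallest differences.

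The 12 largest rises were genes of differing kinds. LIF, a cytokine of the interleukin 6 family, had 12.73, 14.01, 14.10, 13.17 and 13.99 in knockdown replicates 1 to 5, against 5.30 to 5.73 in control RNAi libraries, a 273-fold difference (8.10 ± 0.42, adjusted p = 1.09e-10). TNFSF15, a cytokine of the tumour necrosis factor family, had 12.34 to 13.50 in knockdown libraries and 5.05 to 5.52 in control RNAi libraries (7.74 ± 0.40). VEGFC, a growth factor of lymphatic vessels, and ESM1, a secreted proteoglycan of endothelial cells, rose by 7.47 ± 0.25 and 7.43 ± 0.40. IGFBP3 and IGFBP7, which bind insulin-like growth factors or related ligands, rose by 7.67 ± 0.29 and 7.53 ± 0.16. IGFBP7 was the most even of the 12 largest rises across knockdown libraries, with 12.58 to 13.02 there and 5.03 to 5.52 in control RNAi libraries. The myelin protein gene PMP22 rose by 7.62 ± 0.23, MLPH, a linker in melanosome transport, by 7.35 ± 0.32, and the urea transporter gene SLC14A1 by 7.28 ± 0.45.

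XAF1, MX2 and OAS2, genes that interferon induces, rose about as far but with a wider error. MX2, a GTPase against viruses, had 11.75, 11.83, 13.31, 11.96 and 11.52 in knockdown replicates 1 to 5, and 4.50 to 4.77 in control RNAi libraries. Knockdown replicate 3 was well above the others, and every knockdown library was above every control RNAi library. The differences were 7.71 ± 0.72 for XAF1, 7.60 ± 0.73 for MX2 and 7.59 ± 0.74 for OAS2 (adjusted p = 8.3e-08, 1.13e-07 and 1.28e-07). The SD of XAF1 within knockdown libraries was 0.49. Its standard error takes in the rescue libraries through the shared estimate of spread, and in the wild-type rescue XAF1 ranged from 5.13 to 11.33.

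The largest falls included tissue-restricted genes of nerve, pituitary, retina and cilia. C7, a late component of complement, had 3.63, 3.36, 3.21, 3.44 and 3.84 in knockdown replicates 1 to 5, against 11.79, 9.84, 9.01 and 9.59 in control RNAi replicates 1, 2, 3 and 5. It was 103-fold lower (-6.69 ± 0.48, adjusted p = 4.31e-09), and control RNAi replicate 1 was the highest library. SYNPR, a protein of synaptic vesicles, had 4.32 to 5.99 in knockdown libraries and 10.51 to 10.88 in control RNAi libraries (-5.69 ± 0.37). PPP1R1A, an inhibitor of protein phosphatase 1, fell by 5.60 on the log2 scale and CLUL1, a retinal relative of clusterin, by 5.56. AK7, an adenylate kinase of motile cilia, fell by 5.48, POU1F1, a pituitary transcription factor, by 5.35 and the tetraspanin gene TSPAN8 by 5.34. LIN28B, an RNA-binding protein that blocks the let-7 microRNA, had 7.18, 5.12, 7.28, 7.66 and 7.86 in knockdown replicates 1 to 5, against 11.52 to 12.92 in control RNAi libraries (-5.23 ± 0.35). Knockdown replicate 2 was lowest for LIN28B. FEV, an ETS factor of serotonin neurons, had 3.47 to 3.79 in knockdown libraries and 8.06 to 8.86 in control RNAi libraries (-4.90 ± 0.26). AL122019.1 and TMEM229A fell by 4.81 and 4.79.

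**Figure D3:**
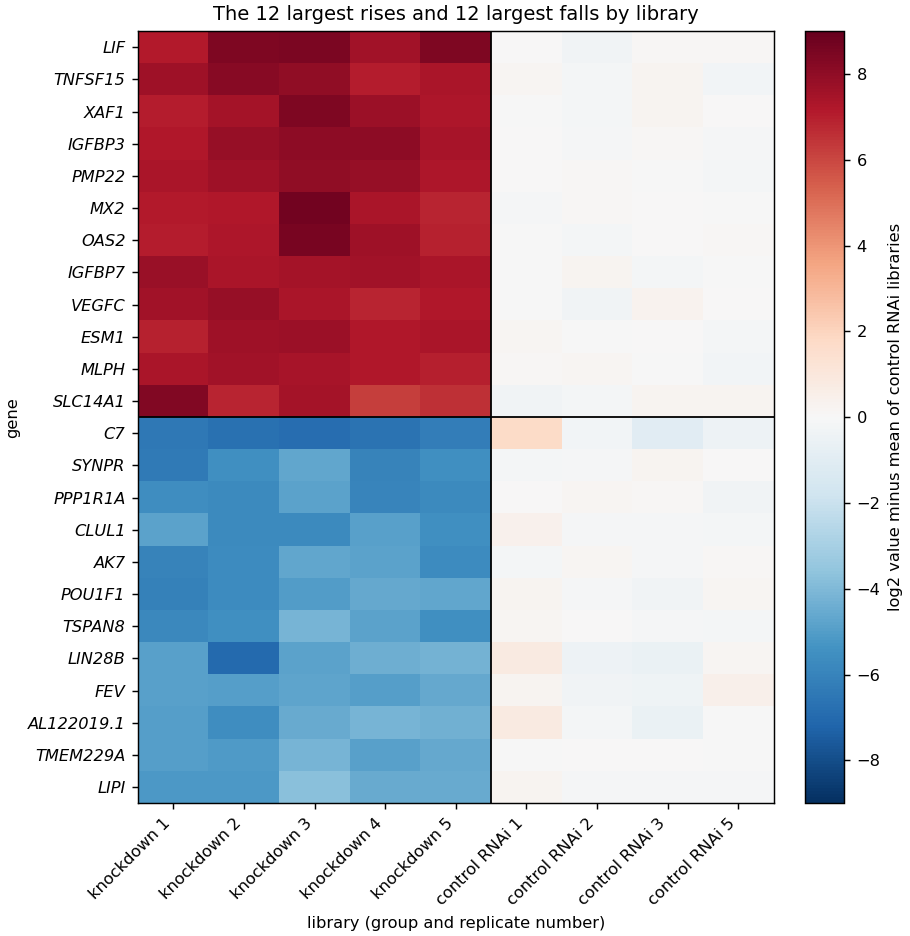
Log2 value minus the mean of the control RNAi libraries for the 12 largest rises (top) and 12 largest falls (bottom), with knockdown libraries left of control RNAi libraries. Every knockdown library departs in the direction of its group; C7 varies most among control RNAi libraries, from 9.01 to 11.79, and MX2 and OAS2 are highest in knockdown replicate 3.

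The rescue libraries place these 24 genes on a wider scale. The comparisons below share the knockdown libraries and the values are a description. The mean of the wild-type rescue lay between knockdown and control RNAi for 12 of the 12 rises and 12 of the 12 falls, and so did the mean of the mut9 rescue. With delta 22 this was so for 8 of the 12 rises and 3 of the 12 falls, some by very little: VEGFC had a mean of 12.714 in delta 22 and 12.72 in knockdown libraries. The median distance from the knockdown mean toward the control RNAi mean, on the log2 scale, was 0.25 for the rises and -0.35 for the falls in delta 22, a negative value being away from control RNAi. It was 3.86 and 3.36 in mut9, and 4.9 and 3.53 in wild-type rescue libraries. Means hide the spread of single libraries. The highest wild-type rescue value was 11.33 for XAF1, 11.35 for MX2 and 11.17 for OAS2, against knockdown means of 12.55, 12.08 and 11.93. C7 stayed nearer to its knockdown mean than to its control RNAi mean with every construct. Its mean was 3.49 in knockdown, 4.49 in delta 22, 4.35 in mut9 and 4.13 in wild-type rescue libraries, against 10.06 in control RNAi libraries. FEV, by contrast, had a mean of 8.02 in wild-type rescue libraries, against 3.59 in knockdown and 8.42 in control RNAi libraries.

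Some genes were nearly silent in control RNAi cells and well measured after knockdown. By level, 8 genes had at least 100 on the linear scale in every knockdown library and under 10 in every control RNAi library, and 0 genes showed the reverse. Both counts depend on the levels chosen: with at least 50 in one group and under 20 in the other, 167 genes were present only after knockdown and 42 only in control RNAi libraries. The 8 were chosen by these values, which are given without a test. The 6 with the largest difference were ROBO4, a guidance receptor of endothelium, WNT7B, a Wnt ligand, IL7, a lymphocyte growth factor, KCNH1, a potassium channel, TMEM255B and SIRPB1, a signal-regulatory protein of myeloid cells. ROBO4 had 7.31, 8.17, 8.04, 7.49 and 8.70 in knockdown replicates 1 to 5 and 2.96 to 3.16 in control RNAi libraries. WNT7B had 7.38 to 8.20 in knockdown libraries and 2.75 to 3.05 in control RNAi libraries. The other two were PDGFB, a platelet-derived growth factor subunit, and the long noncoding RNA gene MYOSLID, which were named after their values were seen. PDGFB had 6.73 to 7.56 in knockdown libraries and 3.15 to 3.32 in control RNAi libraries.

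Promoters of the changed genes were searched for short motifs. RefSeq promoters (GRCh38.p14, 250 bases before to 50 after the start) were matched by gene ID, or else by symbol. This gave 11746 of the tested genes, 2170 of them at least 2-fold higher and 1023 at least 2-fold lower. Matches were counted on both strands. The AP-1 motif was searched as TGANTCA, with any middle base, which is looser than the letters that FOS and JUN proteins favour. It was in 9.63% of promoters of genes at least 2-fold higher and 4.01% of those at least 2-fold lower, against 5.18% of all 11746. The interferon response motif, GAAA, any 2 bases and GAAA, was in 5.58% and 1.76%, against 2.97% of all, and the NF-kB motif, GGGA, any base and TTTCC, in 1.43% and 0.293%, against 0.604%. Among 302 promoters of genes at least 16-fold higher these shares were 11.3% for AP-1, 7.62% for interferon response and 3.31% for NF-kB. The ETS motif CCGGAAGT was in 2.03% of promoters of higher genes and 2.05% of lower genes, below 7.86% of all. The tandem GGAAGGAA, the shortest piece of the repeats that EWS/FLI binds, was in 4.24% and 2.64%, against 3.47% of all. The E2F motif TTTNGCGC was in 1.11% and 2.83% (2.8% of all), the sterol response motif TCACNCCAC in 0.83% and 1.17% (1.06%), and the ATF4 motif TGATGNAAT in 0.783% and 0.196% (0.502%). Interferon and tandem GGAA letters can overlap ETS letters. A match is a description of the letters, not a binding site, and these shares were not tested.

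**Figure D4:**
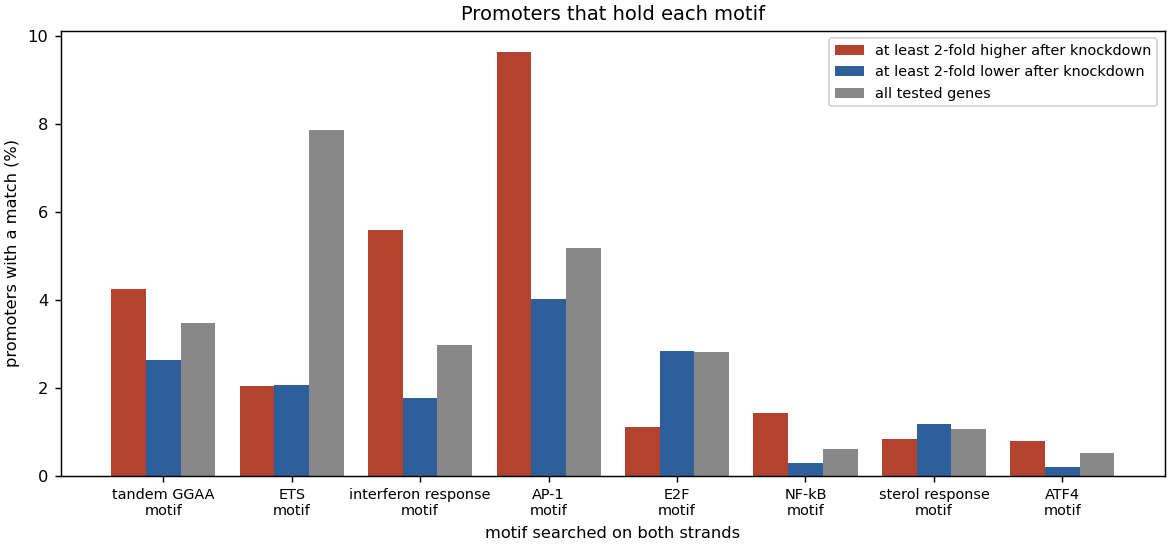
Share of promoters (%) with a match to each of 8 motifs on either strand, for genes at least 2-fold higher after knockdown (2170), at least 2-fold lower (1023) and all tested genes with a promoter (11746). AP-1, interferon response and NF-kB matches are most frequent among higher genes, and ETS matches are rarer in both changed sets than among all genes.

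The stretches below show such matches in genes that moved far, and were chosen after their values were seen. They are written 5′ to 3′ on the strand of the gene, in RefSeq GRCh38.p14, with the motif in capitals in either orientation. The NF-kB letters are shown for 2 chemokine genes and the cytokine gene IL6, with CXCL1 at chr4:73869294-73869343 (+), CXCL6 at chr4:73836568-73836617 (+) and IL6 at chr7:22727107-22727156 (+).
CXCL1: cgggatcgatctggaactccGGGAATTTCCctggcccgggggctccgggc
CXCL6: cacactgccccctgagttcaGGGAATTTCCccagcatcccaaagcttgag
IL6: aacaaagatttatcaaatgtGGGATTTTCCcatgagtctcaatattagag
CXCL6 had 7.82, 11.01, 12.20, 10.63 and 10.89 in knockdown replicates 1 to 5, against 4.27 to 4.31 in control RNAi libraries (6.26 ± 0.59, adjusted p = 9.64e-08). Replicate 1 was the lowest and replicate 3 the highest, and IL6 had the same lowest and highest libraries, at 7.51 and 10.78, with 3.27 to 3.76 in control RNAi libraries (5.94 ± 0.56). CXCL1 rose by 7.11 ± 0.47, again with 10.75 in replicate 1 and 13.44 in replicate 3.

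The interferon response letters are shown for 3 genes that interferon induces, IFI27 at chr14:94110621-94110670 (+), EPSTI1 at chr13:42992262-42992311 (-) and IFIT1 at chr10:89392500-89392549 (+). IFI27 and IFIT1 hold 2 matches each in the stretch.
IFI27: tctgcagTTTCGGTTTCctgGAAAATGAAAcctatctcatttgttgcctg
EPSTI1: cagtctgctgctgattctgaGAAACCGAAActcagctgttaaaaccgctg
IFIT1: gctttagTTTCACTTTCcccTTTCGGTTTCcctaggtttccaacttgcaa
IFI27 had 11.22 to 13.20 in knockdown libraries and 5.23 to 5.54 in control RNAi libraries (6.92 ± 0.77, adjusted p = 6.07e-07). EPSTI1 rose by 6.43 ± 0.61 and IFIT1, whose protein binds viral RNA, by 5.76 ± 0.52. All 3 were highest in knockdown replicate 3, as MX2 was.

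The AP-1 letters are shown for TNFSF15 at chr9:114792624-114792670 (-), for the platelet-derived growth factor receptor gene PDGFRA at chr4:54229241-54229287 (+) and for the cytokine gene IL11 at chr19:55370533-55370579 (-).
TNFSF15: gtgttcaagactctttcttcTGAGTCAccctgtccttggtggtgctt
PDGFRA: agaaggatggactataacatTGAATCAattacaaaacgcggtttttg
IL11: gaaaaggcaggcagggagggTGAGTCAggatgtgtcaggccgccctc
PDGFRA had 13.60, 13.03, 12.62, 12.80 and 12.23 in knockdown replicates 1 to 5, against 5.65 to 5.94 in control RNAi libraries (7.10 ± 0.28, adjusted p = 7.11e-12). IL11 rose by 6.97 ± 0.33. The PDGFRA match has A as its middle base, which only the looser letters admit.

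The tandem GGAA letters, here on the opposite strand, are shown for genes that fell, the antisense RNA gene TRHDE-AS1 at chr12:72273656-72273703 (-), the transcription factor gene CSRNP3 at chr2:165572209-165572256 (+) and the netrin receptor gene UNC5A at chr5:176810391-176810438 (+).
TRHDE-AS1: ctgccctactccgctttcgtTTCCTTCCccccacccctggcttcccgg
CSRNP3: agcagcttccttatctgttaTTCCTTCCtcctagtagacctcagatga
UNC5A: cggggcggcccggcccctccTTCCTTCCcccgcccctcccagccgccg
CSRNP3 had 9.44 to 9.87 in knockdown libraries and 12.26 to 12.55 in control RNAi libraries (-2.82 ± 0.15, adjusted p = 1.41e-10), and UNC5A fell by 2.45 on the log2 scale. Tandem GGAA matches were not more frequent among genes that fell. Tandem GGAA matches were in 2.03% of promoters of genes at least 4-fold lower and 3.97% of those at least 16-fold higher, against 3.47% of all.

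Gene lists were then counted by role, over the members that passed the filter on low values (1440 tested of 1559 listed in 29 lists, with some genes in more than 1 list). Over all genes tested, 36.6% rose and 35.3% fell, and the median was -0.005. Of the 42 tested genes listed as EWS/FLI-activated, 40 fell and 0 rose, with a median of -2.30, and of the 28 listed as EWS/FLI-repressed, 24 rose and 3 fell, with a median of 2.28. Both lists rest partly on work in A673, so their direction here is not independent evidence. FOXM1 and MYC were the activated genes that did not pass. Of its members, GLI1, the effector of hedgehog signalling, fell by 3.77 on the log2 scale, KCNAB3, a potassium channel subunit, by 3.23 and FCGRT, the neonatal Fc receptor, by 3.51. Among repressed genes CD44, the hyaluronan receptor, had 16.06 to 16.53 in knockdown libraries and 9.29 to 10.09 in control RNAi libraries (6.51 ± 0.19). LOX, the lysyl oxidase, rose by 5.86 ± 0.24. Against the list, the semaphorin gene SEMA5B had 2.78 to 3.18 in knockdown libraries and 5.68 to 7.61 in control RNAi libraries (-3.71 ± 0.38, adjusted p = 2.19e-07). NGFR, a neurotrophin receptor, and CDH11, a mesenchymal cadherin, also fell, by 1.96 and 0.36.

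Genes of MAPK feedback and of the AP-1 factors themselves were mostly higher. Of 29 MAPK feedback and output genes, 24 rose and 0 fell (median 1.43), and of 25 AP-1 and related bZIP factors, 20 rose and 0 fell (median 1.38). PHLDA1, an immediate early gene, had 15.75 to 16.09 in knockdown libraries and 9.38 to 10.16 in control RNAi libraries (6.26 ± 0.28, adjusted p = 2.44e-11). DUSP5, a phosphatase of ERK, and SPRED1, a brake on RAS signalling, rose by 2.57 ± 0.15 and 1.48 ± 0.09, and the ephrin receptor gene EPHA2 rose by 1.43 ± 0.08. FOSL1 and FOSL2, which pair with JUN proteins in AP-1, rose by 3.86 ± 0.20 and 3.83 ± 0.17. FOSL1 had 12.43, 12.70, 11.97, 12.22 and 12.55 in knockdown replicates 1 to 5, against 8.45 to 8.81 in control RNAi libraries, with no overlap. NFE2L1 and NFE2L2, transcription factors of proteasome and antioxidant genes, rose by 0.97 and 1.23.

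NRF2 target and antioxidant genes, which NFE2L2 is known to control, moved both ways, with 18 of 32 higher and 7 lower (median 0.35). SOD3, the extracellular superoxide dismutase, had 8.88 to 9.5 in knockdown libraries and 3.17 to 3.51 in control RNAi libraries (5.71 ± 0.28). HMOX1, the inducible haem oxygenase, rose by 2.65 ± 0.20. In contrast AKR1C3, an aldo-keto reductase of steroid and prostaglandin metabolism, had 10.05 to 11.26 in knockdown libraries and 12.69 to 14.24 in control RNAi libraries (-2.62 ± 0.20). GSR, the glutathione reductase, fell by 0.80.

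Notch pathway genes moved both ways, with 18 of 32 higher and 9 lower (median 0.39). The coactivator gene MAML2 rose by 2.88 ± 0.15, the receptor gene NOTCH2 by 1.02 ± 0.06, and ADAM10, a protease that cuts Notch receptors, by 1.17 ± 0.07. The ligand gene JAG2 had 5.71 to 6.81 in knockdown libraries and 8.66 to 10.08 in control RNAi libraries (-3.13 ± 0.32, adjusted p = 2.7e-07). The receptor gene NOTCH3 and HES6, a neural relative of the Notch targets, fell by 1.62 and 1.57.

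Regulators of cell death rose on balance, with 26 of 40 apoptosis regulators higher and 6 lower (median 0.57). BIRC2, an inhibitor of apoptosis, had 14.42 to 15.10 in knockdown libraries and 11.81 to 11.87 in control RNAi libraries (2.85 ± 0.12, adjusted p = 1.29e-11). The list joins genes of opposite function: PMAIP1, which promotes death, and CFLAR, which blocks death receptors, rose by 2.19 ± 0.11 and 1.41 ± 0.08, and BOK, another death-promoting BCL2 relative, by 2.33 ± 0.13. BCL2 itself, the survival factor, fell by 1.16 on the log2 scale. CYCS, cytochrome c, fell by 0.94 and the death receptor gene FAS by 0.69.

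Circadian clock genes rose more than they fell, with 15 of 22 higher and 2 lower (median 0.71). ARNTL and ARNTL2, the positive arm of the clock, rose by 2.26 ± 0.13 and 1.80 ± 0.11. Their partner gene NPAS2 had 10.51 to 11.22 in knockdown libraries and 5.82, 7.62, 7.45 and 7.25 in the control RNAi libraries (3.88 ± 0.28), with control RNAi replicate 1 lowest. BHLHE40, a repressor within the clock, rose by 4.15 ± 0.28. The members that fell were both clock output factors, HLF (-2.95 ± 0.22) and DBP (-1.84 ± 0.15).

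Genes that build ribosomes and proteins fell together by small amounts. Of 49 ribosome biogenesis genes, 44 fell and 0 rose (median -0.52), and 7 fell at least 2-fold. NHP2, a core protein of H/ACA particles, had 9.71 to 10.13 in knockdown libraries and 11.17 to 11.47 in control RNAi libraries (-1.34 ± 0.07, adjusted p = 9.19e-11). HEATR1, FBL and TCOF1, which act in the transcription and methylation of ribosomal RNA, fell by 1.01, 0.97 and 0.82. Of 76 mitochondrial ribosomal protein genes, 65 fell and 2 rose (median -0.48), with MRPL22, MRPS15 and MRPS34 lower (-1.45, -0.95 and -0.88). MRPS6 went against them, with 12.69, 12.94, 12.71, 12.77 and 12.04 in knockdown replicates 1 to 5 and 11.07 to 11.33 in control RNAi libraries (1.40 ± 0.18, adjusted p = 2.57e-06). MRPL36 rose by 0.30, but did not pass with quantile scaling (adjusted p = 0.0755). Of 46 translation factors, 32 fell and 4 rose (median -0.34), with EIF4B and EIF3L, both of initiation, lower (-0.69 and -0.54). EIF6, which keeps the large ribosomal subunit apart from the small one, rose by 0.50 ± 0.06.

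Splicing, protein folding and degradation followed with like sizes. Of 50 core spliceosome and splicing factors, 44 fell and 1 rose (median -0.52), none by as much as 2-fold in either direction. LSM3, LSM4, SNRPC and SF3A3 fell by 0.73, 0.62, 0.66 and 0.53. LSM3 had 11.92 to 12.07 in knockdown libraries and 12.68 to 12.79 in control RNAi libraries, a narrow spread in both. SF3B2 was the member that rose, by 0.12, and it did not pass with quantile scaling (0.07, adjusted p = 0.224). Of 31 proteasome subunits, 22 fell and 0 rose (median -0.32), among them PSMB5, a catalytic subunit (-0.81 ± 0.06), and PSMD3 (-0.66 ± 0.07). The share of subunits that fell was 71%, against 35.3% of all genes. Of 33 chaperone and heat shock genes, 21 fell and 6 rose (median -0.41). The chaperonin subunits CCT4 and TCP1 fell by 0.71 and 0.57, whereas the small heat shock genes HSPB8 and CRYAB rose by 5.08 ± 0.26 and 4.05 ± 0.32. HSPB8 had 9.36 to 9.92 in knockdown libraries and 4.08 to 4.91 in control RNAi libraries.

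Most genes of nucleotide supply and DNA repair were lower too. Of 38 nucleotide synthesis enzymes, 26 fell and 7 rose (median -0.66), and at least 2-fold 4 fell and 5 rose. The log2 of their summed linear values was higher after knockdown, at 17.85 to 18.03, against 17.6 to 17.64 in control RNAi libraries. CAD and UMPS, which make pyrimidines, fell by 1.18 and 0.86. NT5E, the surface enzyme CD73 that makes adenosine outside the cell, had 16.66 to 16.86 in knockdown libraries and 10.37, 11.63, 11.87 and 11.93 in the control RNAi libraries (5.36 ± 0.24, adjusted p = 2.38e-11). DCTD, a deaminase of deoxycytidylate, rose by 1.21 ± 0.09. Of 40 genes of homologous recombination, Fanconi and mismatch repair, 32 fell and 1 rose (median -0.47). EXO1, a DNA exonuclease, fell by 1.34, XRCC2, which acts in recombination, by 0.92 and FANCI by 0.84. NBN, the damage sensor of the MRN complex, was the member that rose (0.90 ± 0.10, adjusted p = 9.31e-07). RAD50, its partner in that complex, had 11.92 to 12.01 in knockdown libraries and 11.94 to 12.07 in control RNAi libraries, and its interval ran from -0.08 to 0.09.

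Lysosome genes and calcium- or sugar-binding proteins of the annexin, S100 and galectin families were mostly higher. Of 49 lysosome genes, 34 rose and 6 fell (median 0.84). The proteases CTSB and CTSO rose by 2.14 ± 0.10 and 2.86 ± 0.15, and the mannosidase gene MANBA had 10.95 to 11.68 in knockdown libraries and 7.49 to 8.31 in control RNAi libraries (3.32 ± 0.17). PPT1, a thioesterase, fell by 0.81. Of 23 annexins, S100 proteins and galectins, 22 rose and 0 fell (median 1.57). S100A16, a calcium-binding protein, had 12.61 to 13.04 in knockdown libraries and 5.57 to 5.80 in control RNAi libraries, a 143-fold difference (7.16 ± 0.25, adjusted p = 2.44e-12). S100A13, S100A11 and ANXA4 rose by 3.52, 2.31 and 3.03.

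Serpins and genes of complement, coagulation and fibrinolysis were mostly higher. Of 17 serpins, 12 rose and 0 fell (median 1.51), and of 31 complement, coagulation and fibrinolysis genes, 27 rose and 2 fell (median 2.15). PLAT and PLAU, the tissue and urokinase plasminogen activators, rose by 5.69 ± 0.22 and 4.92 ± 0.21, and PLAUR, the urokinase receptor, by 3.54 ± 0.12. SERPINE2, an inhibitor of both activators, had 16.49, 16.83, 16.83, 16.69 and 16.24 in knockdown replicates 1 to 5, against 13.60 to 13.91 in control RNAi libraries (2.91 ± 0.13, adjusted p = 2.98e-11). SERPINB6 rose by 2.04 ± 0.15. CD59, which stops the complement pore, had 15.89 to 16.27 in knockdown libraries and 12.40 to 12.84 in control RNAi libraries (3.49 ± 0.12). CFD and C5 were the members that fell (-1.07 and -0.82), and for both control RNAi replicate 1 lay within the range of the knockdown libraries. C7 was not in this list.

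Most proteoglycan genes were higher, and tetraspanin and cell junction genes moved both ways. Of 48 proteoglycan and glycosaminoglycan genes, 33 rose and 8 fell (median 1.11). CHST2 and CHST11, sulfotransferases, rose by 5.23 ± 0.12 and 4.74 ± 0.18, SDC1, a syndecan, by 6.19 ± 0.27, and UGDH, which supplies glucuronic acid, by 1.95 ± 0.09. CSPG5, a neural proteoglycan, had 5.45 to 6.65 in knockdown libraries and 8.80 to 10.03 in control RNAi libraries (-3.61 ± 0.17). Of 25 tetraspanins, 14 rose and 6 fell (median 0.42). CD82, CD9 and CD63 rose by 6.26 ± 0.28, 4.31 ± 0.22 and 1.60 ± 0.08, and TSPAN5 by 2.15 ± 0.11, while TSPAN8 and TSPAN13 fell by 5.34 and 2.33. Of 28 cell junction genes, 17 rose and 8 fell (median 0.96), with the tight junction scaffold TJP1 higher (1.08) and the desmosomal plakophilins PKP1 and PKP2 lower (-1.49 and -3.70). The summed level of the junction list, the log2 of its members' summed linear values, was lower after knockdown, at 15.92 to 16.28, against 16.35 to 16.44 in control RNAi libraries. Among its 19 genes with a mean of at least 100, 10 rose and 6 fell, and the median was 0.26.

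The cytoskeleton showed exchanges within families. Of 23 intermediate filament genes, 15 rose and 4 fell (median 1.21). VIM, the filament of mesenchymal cells, had 17.57 to 17.94 in knockdown libraries and 16.11 to 16.54 in control RNAi libraries (1.43 ± 0.11), and NES, the filament of progenitor cells, rose by 2.98 ± 0.24. KRT81, a hair keratin whose sequence is close to that of other hair keratins, rose by 2.65 ± 0.19. Its level was low, at 4.23 to 5.44 in knockdown libraries and 2.10 to 2.32 in control RNAi libraries, which is under 10 (linear) in the latter. NEFH, a neurofilament, and KRT17, a keratin, fell by 1.49 and 3.49. Of 35 kinesins, the motors of microtubules, 21 fell and 9 rose (median -0.20), with KIF26A lower (-3.08 ± 0.33) and KIF21B, KIF13B and KIF13A higher (2.86, 1.36 and 1.18).

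Lipid mediator genes included some of the wider contrasts. Of 26 prostaglandin and leukotriene genes, 15 rose and 9 fell (median 1.59). Among the 16 with a mean of at least 100, 8 rose and 8 fell, and the median was 0.21, so the lean toward rises came from members with lower means. PTGS2, the inducible cyclooxygenase, had 13.55, 14.90, 14.75, 12.79 and 14.07 in knockdown replicates 1 to 5, against 9.05 to 9.32 in control RNAi libraries (5.02 ± 0.30, adjusted p = 5.96e-10). PTGES, which makes prostaglandin E2, rose by 4.86 ± 0.26, the receptor gene PTGFR by 3.52 ± 0.18, and CYP1B1, a cytochrome P450, by 5.45 ± 0.28. The prostaglandin E receptor gene PTGER3 had 10.45 to 11.44 in knockdown libraries and 12.90 to 13.01 in control RNAi libraries (-1.99 ± 0.12). PLA2G3, a secreted phospholipase, was spread from 3.83 in knockdown replicate 1 to 6.92 in replicate 3, against 9.27 to 10.07 in control RNAi libraries (-4.19 ± 0.39).

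Synaptic and ciliary lists held both rises and falls. Of 50 synaptic vesicle and exocytosis genes, 17 rose and 22 fell (median -0.18), which is 34% and 44% of the list, against 36.6% and 35.3% of all genes. In this list 27 changed at least 2-fold, 11 higher and 16 lower. SYNPR and the synaptotagmin gene SYT6 (-2.06 ± 0.11) fell, while the syntaxin gene STX1A rose (2.53 ± 0.11). The granins CHGA and CHGB, both proteins of secretory granules, went opposite ways, a pair singled out after the values were seen. CHGA had 5.11 to 5.49 in knockdown libraries and 8.63 to 9.32 in control RNAi libraries (-3.72 ± 0.29). CHGB had 8.98 to 10.50 in knockdown libraries and 5.82 to 6.10 in control RNAi libraries (3.65 ± 0.25). Of 40 ciliary axoneme genes, 14 rose and 14 fell (median -0.005), 35% each and near the shares of all genes, and with quantile scaling 9 rose and 19 fell. The dynein gene DNAH5 and ARMC4, a dynein docking factor, rose by 2.92 and 3.51, and AK7 and the dynein assembly factor DNAAF3 fell by 5.48 and 2.38. Of 432 genes with ZNF symbols, most of them zinc finger factors, 95 rose and 180 fell (median -0.12), and 63.7% passed, against 71.9% of all genes.

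**Figure D5:**
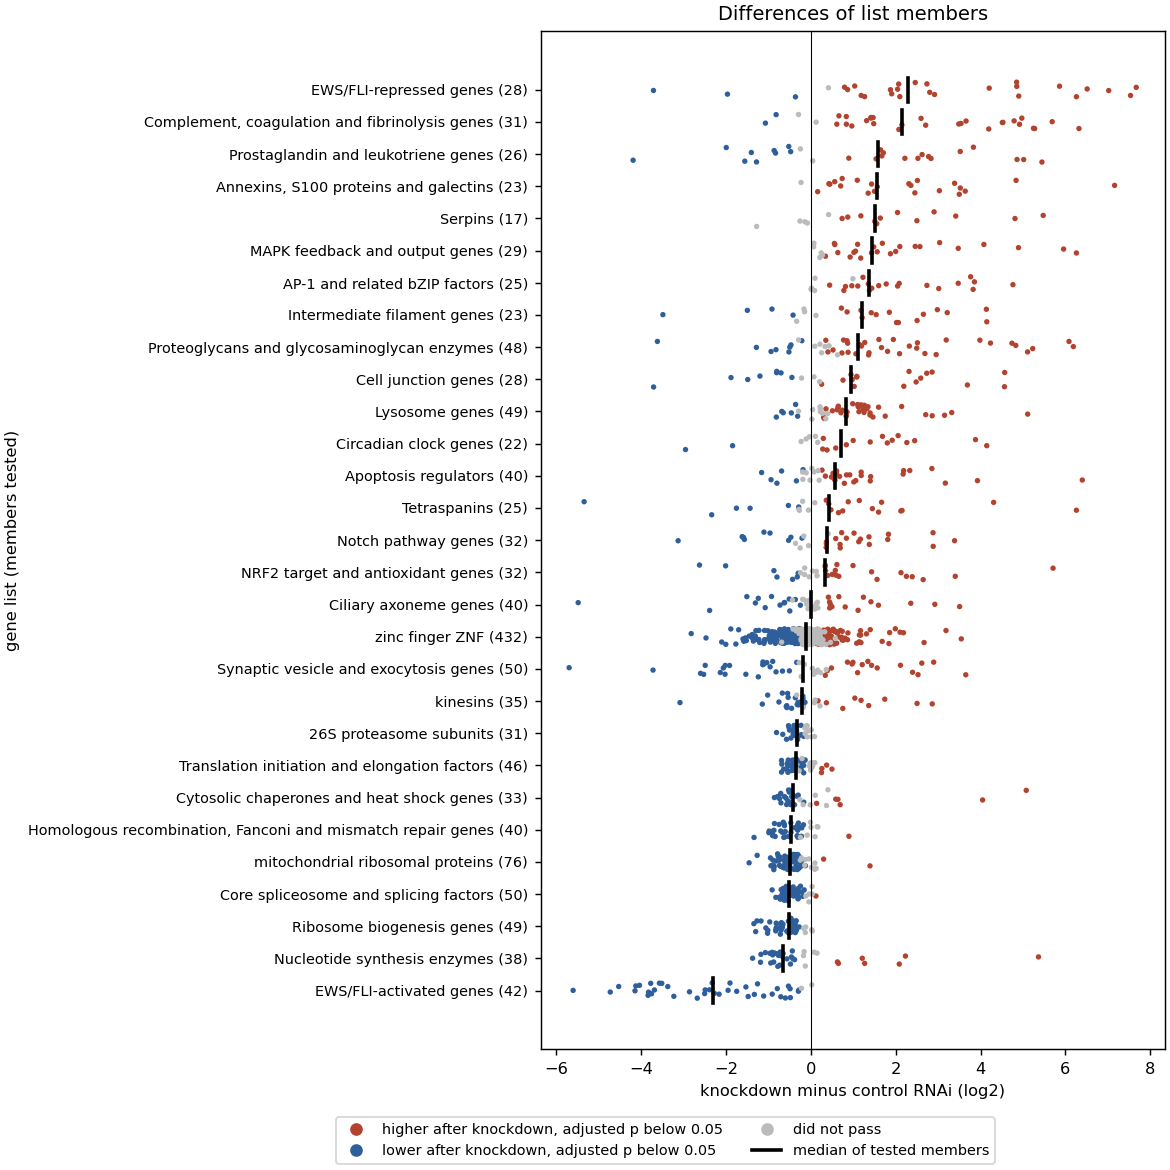
Knockdown minus control RNAi difference (log2) of each tested member of 29 gene lists, ordered by median (black bar), in red where higher, blue where lower and grey where adjusted p was 0.05 or more. EWS/FLI-activated genes (median -2.30) and EWS/FLI-repressed genes (2.28) are at the ends, growth lists such as ribosome biogenesis and the spliceosome sit in narrow bands near -0.5, and lists such as the annexins, S100 proteins and galectins spread to the right.

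Among noncoding genes, 65.7% of lincRNA genes and 56.3% of antisense genes passed, against 71.9% of all genes. Of 767 lincRNA genes, 296 (38.6%) rose and 208 (27.1%) fell, and of 959 antisense genes, 272 (28.4%) rose and 268 (27.9%) fell. LINC00973 had 10.51 to 11.12 in knockdown libraries and 4.35, 4.35, 5.24 and 5.35 in the control RNAi libraries (6.12 ± 0.35, adjusted p = 2.84e-10). NR2F1-AS1, LINC00702 and LINC01204 rose by 4.16, 4.10 and 3.99. FEZF1-AS1 had 7.15, 8.04, 9.01, 7.57 and 8.28 in knockdown replicates 1 to 5, against a mean of 12.13 (SD 0.10, n = 4) in control RNAi libraries (-4.17 ± 0.26, adjusted p = 9.56e-10), with replicate 1 lowest and replicate 3 highest. LINC00355, LINC02197 and TRHDE-AS1 fell by 3.22, 3.22 and 3.12. Whether reads were counted by strand is not given in the sources used here, so values of antisense genes are uncertain. The 634 processed pseudogenes, with 87 higher and 199 lower, share reads with their parent genes and are uncertain for the same kind of reason.

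Some genes held their level closely. For 1891 genes the 95% interval of the difference lay within 0.3 log2 on both sides of 0, and 281 of these still passed the test with a small difference. The 6 narrowest were RAD50, CAPN7, a calpain, MTCH2, of the outer mitochondrial membrane, CACUL1, SMAD4, the common mediator of TGF-beta signals, and STRN3. SMAD4 had 12.31 to 12.57 in knockdown libraries and 12.41 to 12.59 in control RNAi libraries, with an interval from -0.10 to 0.10. These levels are relative: with quantile scaling RAD50, CAPN7, CACUL1 and STRN3 were lower and passed (-0.12, -0.13, -0.10 and -0.10). GAPDH, often used as a loading control, was slightly lower (-0.31 ± 0.06, adjusted p = 0.000358), whereas ACTB did not pass (0.22 ± 0.10, adjusted p = 0.0537), though it did without knockdown replicate 1 (0.31, adjusted p = 0.00638). STAG2, a cohesin gene, had 13.59 to 13.93 in knockdown libraries and 13.72 to 14.33 in control RNAi libraries, ranges that overlap (-0.35 ± 0.08, adjusted p = 0.000725).

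Markers of other cell types were counted against the 36.6% of all genes that rose and the 35.3% that fell. Lists of 5 to 7 tested markers are too short for their shares to be read against these. Most of the 21 libraries carry the EWS/FLI RNAi, so a weak marker passes the filter more readily when it is high after knockdown. That can tilt lists of weak markers toward rises. With a mean of at least 100, 0 immune and 2 epithelial markers were tested, and 0 of these rose. Summed levels are given for each list as for the junction genes above. Of 12 smooth muscle and pericyte markers, 10 rose and 0 fell, and the summed level was 13.57 to 14.39 in knockdown libraries and 11.88 to 12.40 in control RNAi libraries. CSPG4, the NG2 proteoglycan of pericytes, had 10.90 to 11.41 in knockdown libraries and 4.76 to 5.64 in control RNAi libraries (6.08 ± 0.32), and TAGLN, an actin-binding protein, rose by 3.27 ± 0.29. MYH11, the myosin of mature smooth muscle, did not pass (0.33 ± 0.23, adjusted p = 0.221). Endothelial markers rose in 8 of 10 tested and fell in 1 (12.09 to 12.31 in knockdown and 10.66 to 10.88 in control RNAi libraries). Of the genes that define endothelium, TEK was below the filter and CDH5 had 2.95 to 4.29 in knockdown libraries and 3.13 to 3.72 in control RNAi libraries. Osteoblast markers rose in 5 of 7 and fell in 2 (13.19 to 13.83 in knockdown and 11.44 to 11.74 in control RNAi libraries), while the bone-defining genes SP7, BGLAP and IBSP were below the filter. Chondrocyte markers rose in 7 of 10 and fell in 2 (13.16 to 13.40 in knockdown and 11.62 to 12.06 in control RNAi libraries). Neuron and neuroendocrine markers rose in 6 of 9 and fell in 3 (12.78 to 13.81 in knockdown and 12.47 to 12.69 in control RNAi libraries). Skeletal muscle markers fell in 3 of 5 and rose in 1 (11.03 to 11.34 in knockdown and 12.22 to 12.65 in control RNAi libraries), with MYOD1, MYOG and MYF5 below the filter. The adipocyte list had 2 of 7 higher and 3 lower (8.70 to 9.74 in knockdown and 9.24 to 10.09 in control RNAi libraries), with ADIPOQ, LEP and PLIN1 below the filter. Epithelial markers rose in 3 of 6 and fell in 1 (12.91 to 13.45 in knockdown and 12.67 to 13.36 in control RNAi libraries), with EPCAM and CDH1 below the filter. Immune markers rose in 3 of 5 (7.87 to 8.78 in knockdown and 6.60 to 6.90 in control RNAi libraries), with CD3E, MS4A1 and LYZ below it. Of 5 Schwann and melanocyte markers 1 rose and 3 fell (8.32 to 8.65 in knockdown and 8.07 to 8.40 in control RNAi libraries), and SOX10 was below the filter. The part of these markers in the other results was not tested.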

How the data were processed

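RNA of A673 cells was sequenced from 2.5 ug of total RNA per library with ScriptSeq, per the labels' protocols. Tools named in the submitters' processing notes are STAR 2.5.2b, bcl2fastq, DESeq2 and HTSeq, and the build named is hg19. The authors deposited 1 table of normalized log2 values for 57820 genes, whose form, with values from -4.1 to 20.2 and low genes drawn together, is that of regularized logarithms. Such values shrink differences of weakly measured genes. They were used without a pseudocount. Ensembl IDs were joined to GENCODE 29 names, with 52338 matched and 5482 not.

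Genes with at least 10 on the linear scale in 3 or more of the 21 libraries were tested with limma 3.58.1 (trend, empirical Bayes) in R 4.3.3, with 1 mean per group and the replicate number as a block over all 21 libraries, and Benjamini-Hochberg adjustment over 18040 genes at 0.05, 2-sided. The replicate number is the labelled batch, so it pairs libraries. Over 34 pairs of libraries of different groups with the same number, the mean correlation of deviations from the group means was 0.203 (24 pairs above 0.1), and for pairs with different numbers it was -0.049. Tested on simulated data with the same groups (18040 genes), the fit found 46% of added differences of log2 0.5 and 82% of log2 1, with 4 false calls. The simulation changed few genes, whereas 71.9% passed in the data. Its noise was independent between libraries and held no batch effect, so these rates apply to that setting only. The highest correlation between 2 of the 9 libraries was 0.9978, with 0 genes identical.

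The members, gene lists and alternatives were chosen with earlier results of these data known, and list membership was not checked against a source. No set test was run. The rule for named genes takes FLI1 and EWSR1, the 12 largest rises and falls and the 4 largest of noncoding genes with a mean of at least 100 in a group and no overlap of groups, per list the 4 smallest adjusted p and called members against the majority, the 6 strongest on and off genes, the 6 narrowest intervals and a fixed set. Not all of these are printed, and several genes and lists are not reported here. Near-identical copies and overlapping genes can share reads, which was not measured. RefSeq promoters were matched by gene ID, or by symbol where the ID gave none, and carry GRCh38.p14 coordinates, and no hg19 coordinates are given. Alternatives were no replicate block, the 9 libraries alone, no filter, a mean of at least 100, rescaling by trimmed means, quantile scaling, array weights, no trend each of the 9 libraries left out and, chosen after seeing the data, exact tests with swaps only within batches.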

Additional observations from a re-analysis of the deposited data

Results flagged for a closer look

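In 382 groups of 4 or 5 libraries (191 named genes in knockdown and control RNAi), 17 held a library whose gap to the others was wide beside the range of the group, where chance gives about 1 in 20. No cause was tested. Values are log2.

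In knockdown replicate 1, FANCI was at 12.18 (12.38 to 12.40 in the other knockdown libraries), PTGFR at 10.73 (11.06 to 11.17) and CSPG4 at 10.90 (11.27 to 11.41). In knockdown replicate 2, BHLHE40 was at 13.08 (12.23 to 12.46) and LIN28B at 5.12 (7.18 to 7.86). MX2 was at 13.31 in knockdown replicate 3 (11.52 to 11.96), and RAD50 at 11.92 in replicate 4 (11.98 to 12.01). In knockdown replicate 5, MRPS6 was at 12.04 (12.69 to 12.94) and CYCS at 13.83 (13.36 to 13.44).

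Among control RNAi libraries, replicate 1 had CFD at 3.53 (4.65 to 4.74 in the others), LINC00355 at 7.72 (6.47 to 6.65), LIPI at 12.28 (11.92 to 11.95) and PPT1 at 11.88 (12.19 to 12.25). DBP was at 8.77 in replicate 2 (8.40 to 8.44). In replicate 3, KRT81 was at 2.32 (2.10 to 2.12), and in replicate 5, EPHA2 was at 12.24 (12.33 to 12.35) and STRN3 at 11.82 (11.97 to 11.98). Several of these gaps are small in size because the group itself is narrow.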

How the results depend on the processing

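The count of genes called was 12964, and ran from 11989 with the 9 libraries alone to 14377 with no filter (40462 genes tested). It was 9443 of 12166 genes with a mean of at least 100, and 12290 to 12773 with single libraries left out. With no replicate block it was 12537, and the block, which follows the labelled pairing by batch, changed the majority direction of none of the 40 lists. Rescaling by trimmed means gave 13313 calls, 43.8% of them higher, with a median of all genes of -0.107, and quantile scaling gave 13834, 37.9% higher, with a median of -0.201, so the balance of small rises and falls depends on scaling. Under both, 39 of 40 lists kept the direction of their majority. The exception was the ciliary list (9 higher in place of 14 under each).

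With a mean of at least 100, fewer genes were tested, and 1928 were at least 2-fold higher and 939 lower. Under that filter the members higher were 10 of 19 tested for cell junctions and 7 of 13 for intermediate filaments. They were 8 of 16 for prostaglandins and 6 of 16 for cilia. Among markers, 3 of 5 were higher for osteoblast, 4 of 5 for chondrocyte and 6 of 7 for smooth muscle genes. The same count was 0 of 2 for epithelial and 3 of 4 for endothelial genes, and 0 immune markers were tested. The members lower were 13 of 29 for synaptic, 1 of 2 for adipocyte and 1 of 1 for Schwann genes. Of all 12166 genes tested, 9443 passed, 48.8% of them higher, and marker lists this short cannot be read against that share. Genes with a narrow interval numbered 17877 with no filter, where low genes are drawn together, and 620 within 0.2. With swaps only within batches, added after seeing the data, the exact permutation p of FLI1 and EWSR1 was 0.125. Genes silent in control RNAi and present after knockdown numbered 167 at levels of 20 and 50. Genes silent after knockdown and present in control RNAi numbered 42 at those levels.

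Of 4246 values of 252 named genes, 4204 kept their direction and their side of the threshold, 33 no longer passed, 4 newly passed and 5 changed sign. Among the genes whose calls were lost or gained were KRT8, SF3B2, EIF5A2, EIF4G2, MRPL36 and ACTB. The sign changes were RAD50 (-0.10 with trimmed means and -0.12 with quantile scaling), CAPN7 (-0.13), CACUL1 (-0.10) and STRN3 (-0.10) with quantile scaling. Without counts, the depth that limits weak genes is unknown.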
